A study of Mus musculus with 18 samples.

Results

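The 18 small RNA libraries of this study come from the semen of outbred ICR males and were divided by the level of 1 entry, novel_mir1, a predicted miRNA that lies over a tRNA gene for alanine. The 6 libraries with at least 1000 TPM of novel_mir1 form the high set and the other 12 the low set. TPM is the deposited unit, reads of an entry per 1000000 reads of its library, with no term for length. The high set holds F0 NHS replicate 3, F0 Con replicate 2, F1 NHS replicate 2, F2 NHS replicate 1 and F2 Con replicates 1 and 2.

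The libraries form 6 groups of 3 replicates. F0 NHS males received the irritant gases NH3 and H2S for 5 weeks from 3 weeks of age, and F0 Con males are their controls. F1 NHS males are sons of F0 NHS fathers and untreated females and were raised without treatment. F2 NHS males descend from them and were also untreated, and F1 Con and F2 Con males are the controls of those generations. The mating age given is 8 weeks for F1 NHS and F1 Con alike. Nothing in the labels ties a library to 1 animal or gives a batch, so the p-values below rest on the spread among libraries, part of which may be technical. Both sets occur in 5 of the 6 groups, F1 Con having no library of the high set, and the sets were compared within groups that hold both. For lists that stop early fewer groups remain: 4 for known miRNAs and predicted siRNAs (without F1 NHS), and 3 for known piRNAs and Rfam families (F0 NHS, F0 Con and F2 Con, with 4 high and 5 low libraries).

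Mature sperm carry fragments of tRNA, miRNAs, and piRNAs left from the testis. A tRNA is cut at its 5′ end to a fixed first base before use, and its fragments in sperm mostly begin there. piRNAs guide PIWI proteins against transposons in the germ line. Primary piRNAs begin mostly with uridine, written T in the deposited sequences, and their ping-pong partners tend to carry adenine at base 10. Where a small RNA starts therefore sets both its name in a list and, for a miRNA, its seed, the bases 2 to 8 that pair with targets.

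The results below turn on small RNAs that differ by 1 base at their start. Pairs of predicted piRNAs, each pair 1 entry and the same entry without its first base, are shown because the sets divided them. They come from 5 top-ranked pairs, of which a further 2 are given below. Pairs were ranked by the smaller of 2 means, the longer copy's TPM in the low set and the shorter copy's in the high set. This ranking favours pairs that exchange between the sets. Pairs that share 14 bases were taken once. The capital marks the base that the shorter copy lacks, and sequences are those of the authors' list (mm10). The positions are those that the list gives for the repeat to which an entry was assigned, as deposited.
novel_pir359883: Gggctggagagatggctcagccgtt
novel_pir333349: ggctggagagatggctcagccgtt
novel_pir575602: Gtcaggatggccgagtggtc
novel_pir575604: tcaggatggccgagtggtc
novel_pir257859: Caggtccctgttcgggcgcc
novel_pir257856: aggtccctgttcgggcgcc
The list places novel_pir359883 in an ERVK element at chr14:31515238-31515829 (plus strand) and its shorter copy in an ERVL-MaLR element at chr13:90949919-90950187 (minus strand). The next pair is listed in 1 ERVL element at chr3:134773527-134774074, and the last pair in 1 ERVK element at chr11:9975636-9975989, both on the minus strand.

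The marker itself starts 1 base late. Its mature sequence is shown beside that of another predicted miRNA over a tRNA gene, novel_mir4, which also starts at the second base of its gene.
novel_mir1: gggauguagcucagugguagagc
novel_mir4: accucguggcgcaacggu
The precursor of novel_mir1 lies at chr13:23438704-23438767 on the minus strand, within n-TAcgc10 (chr13:23438697-23438768), an alanine tRNA gene in RefSeq (GRCm38.p6, the same assembly as mm10). novel_mir4 lies at chr10:91181414-91181482 on the minus strand, within the tryptophan tRNA gene n-TWcca2 (chr10:91181412-91181483). Of 7299 predicted precursors with a position, 6 lie over 1 of the 430 tRNA genes of RefSeq.

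novel_mir1 chose the sets, so its levels are given without a test. It stood at 2378 TPM in F0 NHS replicate 3, 5685 in F0 Con replicate 2, 7124 in F1 NHS replicate 2, 3283 in F2 NHS replicate 1, and 18720 and 5399 in F2 Con replicates 1 and 2. In the low set it ran from 42.9 to 621 TPM, with a median of 124. The values nearest to the threshold are 2378 TPM in the high set and 621 TPM, in F1 NHS replicate 1, in the low set. The other marker of tRNA reads, RF00005, the tRNA family of Rfam, ran the opposite way. It stood at 43.2 to 659 TPM (median 251) in the 5 high libraries with whole Rfam lists, against 3542 to 20402 TPM (median 11702) in 8 low libraries. The sum of both markers was 2531 to 18971 TPM (median 5728) in the high set and 3670 to 20487 TPM (median 11830) in the low set, and the sets overlapped. The high set is thus high in novel_mir1 and not in the tRNA reads of both entries together.

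**Figure D1:**
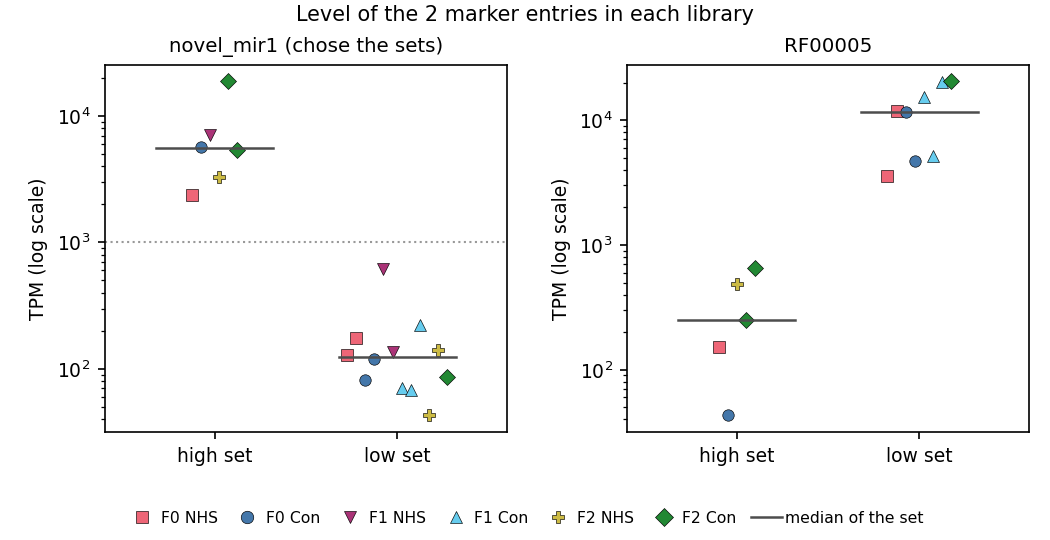
TPM of novel_mir1 and of RF00005 in each library (log axes), with the high set left of the low set, points marked by group, lines at the set medians and the threshold of 1000 TPM dotted. novel_mir1 spans 2378 to 18720 TPM in the high set and 42.9 to 621 in the low set, and RF00005 43.2 to 659 against 3542 to 20402.

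Library totals were 18072900 to 28970914 reads in the high set and 17224399 to 29430555 in the low set, so the floor of 3 reads corresponds to between 0.102 and 0.174 TPM. Intervals and floors cover counting error only. The lists of 5 libraries stop before their end, which left 18 libraries for predicted miRNAs and for predicted piRNAs up to number 605324, 16 for known miRNAs and predicted siRNAs, and 13 for known piRNAs and Rfam families. The germ cell family of miR-34 with miR-449 summed to 5190 to 22736 TPM in the high set and 8154 to 26021 in the low set. Red blood cell miRNAs summed to 4403 to 59231 TPM in the high set and 9240 to 77971 in the low set. Most of this was 1 miRNA, miR-451a (4287 to 58904 and 8818 to 76735 TPM), and the presence of blood RNA was not tested. F0 Con replicate 2 and F0 NHS replicate 3 stood apart from the rest of the high set in many entries, and results are given without them where that moves a call. miRNAs held 20.3% to 52.7% of reads in the high set and 13.3% to 57.4% in the low set. By exact two-sided permutation of the set label within groups, 0 of 10 class shares passed the test (smallest adjusted p = 0.545, smallest unadjusted p = 0.0741). For 6 of these classes 27 relabellings allow no p below 0.03704, so the test could hardly pass after adjustment over 10.

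The start of predicted piRNAs divided the sets. In 71127 nested pairs the shorter entry equals the longer one without its first base, and the share of a pair's reads that fell on the shorter copy was averaged over pairs in each library. This share was 67.8% in F0 NHS replicate 3, 66.2% in F0 Con replicate 2, 68.1% in F1 NHS replicate 2, 65.96% in F2 NHS replicate 1, and 67.0% and 66.6% in F2 Con replicates 1 and 2. In the low set it ran from 39.1% to 45.8%. The means were 66.9% ± 0.865 in the high set (SD, n = 6) and 42.9% ± 2.39 in the low set (SD, n = 12). By this mean no low library overlapped with the high set. Pooling the reads of all pairs, which lets the abundant pairs decide, gave 56.9% to 78.8% in the high set and 50.6% to 61.6% in the low set, where F1 Con replicate 2 lay above 5 of the 6 high libraries. The pooled difference within groups was 7.95 percentage points (exact permutation, adjusted p = 0.0123): 5.13 in F0 NHS, 21.4 in F0 Con, 2.13 in F1 NHS, 6.22 in F2 NHS and 4.83 in F2 Con. Within groups the difference of the mean over pairs was 24.2 percentage points, and it was positive in 5 of 5 groups: 22.7 in F0 NHS, 20.6 in F0 Con, 26.1 in F1 NHS, 24.7 in F2 NHS and 26.9 in F2 Con. The exact permutation p was 0.004115, the smallest that 243 relabellings can give, and 0.009877 after adjustment over 6 measures. The measure was chosen after the data were seen, and novel_mir1, whose level chose the sets, is itself a read that starts 1 base late.

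For the last base the sets overlapped. In 86192 pairs that differ by the last base, the shorter copy held 53.2% to 55.8% of reads in the high set and 48.9% to 54.3% in the low set. The difference of 2.99 percentage points within groups had an exact permutation p of 0.00823 (adjusted 0.009877). It did not hold for pairs with at least 20 reads on average (1.21 percentage points, adjusted permutation p = 0.634) and turned to -1.80 when the reads of all pairs were pooled. Among pairs with at least 20 reads on average, the share without the first base was higher in every high library than in every low library for 164 of 753 pairs (21.8%), and lower in every high library for 42 (5.58%). For the last base these counts were 26 of 895 pairs (2.91%) and 24 (2.68%).

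**Figure D2:**
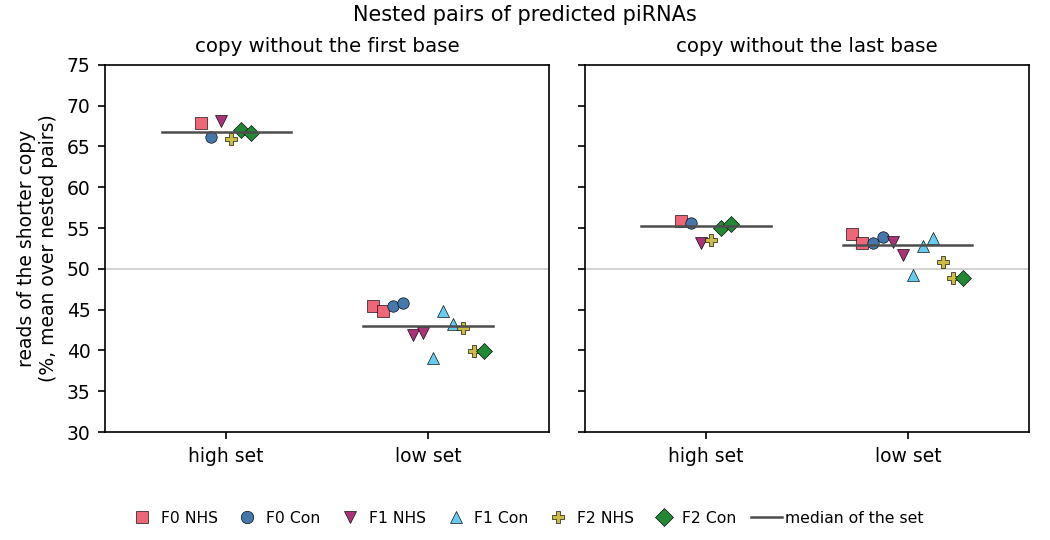
Mean share of reads on the shorter copy of nested predicted piRNA pairs in each library, for copies without the first base (left) and without the last base (right), high set left of low set, lines at the medians; the vertical axis runs from 30% to 75%. For the first base the sets lie at 65.96% to 68.1% and 39.1% to 45.8%, and for the last base they overlap.

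The ranges did not overlap for the first base in any of the 7 repeat families with enough pairs. The share on the shorter copy was 65.3% to 68.0% in the high set against 39.5% to 47.8% in the low set for LINE/L1, and 66.4% to 68.2% against 38.5% to 44.1% for ERVK. ERV1 had 62.6% to 65.3% in the high set and 39.1% to 48.1% in the low set. The old elements LINE/L2 (70.3% to 75.2% against 26.1% to 35.6%) and hAT-Charlie (64.9% to 74.4% against 25.0% to 38.6%) showed wider gaps, over 868 and 1047 pairs. ERVL-MaLR and ERVL, the remaining families, stood at 66.8% to 70.0% against 37.6% to 44.8% and at 65.9% to 69.8% against 42.1% to 49.6%. These families share their libraries, so the 7 ranges are not 7 independent results.

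Some entries were listed in every library of 1 set and in no library of the other. Of 589042 predicted piRNAs with a sequence, 163 were listed in 6 of 6 high and 0 of 12 low libraries. Among these, 77.3% equal another entry without its first base, against 12.03% of all entries with a sequence. This was not particular to the first base, since 78.5% equal another entry without its last base, against 14.3% of all. Of the 163, 16 (9.82%) start with T, against 33.4% of all. The reverse group, listed in 0 of 6 high and 12 of 12 low libraries, held 257 entries, of which 188 (73.2%) start with T, 90 equal another entry without its first base and 82.5% do without its last. For 79 of these 257 the copy 1 base shorter at the start was listed in every high library. Both groups were picked by their presence, so their makeup is a description.

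The pairs printed above show the size of the exchange. novel_pir359883, the longer copy, had 1.22 to 22.8 TPM (median 2.23) in the high set and 27.4 to 1111 TPM (median 273) in the low set. Its copy without the first base, novel_pir333349, had 82.1 to 1590 TPM (median 142) in the high set and 0.824 to 24.3 TPM (median 3.59) in the low set. The shorter copy thus took 98.1% to 99.2% of the pair's reads in the high set and 0.974% to 5.95% in the low set. In the chr3 pair novel_pir575602 had 0.0345 to 1.23 TPM in the high set against 18.4 to 194 in the low set, and novel_pir575604 46.3 to 649 TPM against 0.0782 to 1.57. For the chr11 pair the longer copy novel_pir257859 overlapped between sets, at 1.23 to 21.9 TPM in the high set and 2.38 to 644 in the low set, while novel_pir257856 had 6.24 to 1175 TPM against 0 to 1.41.

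Not all pairs of this ranking followed. The ERV1 pair of novel_pir249668, with 265 to 2816 TPM in the high set and 49.1 to 476 in the low set, and novel_pir249670, with 89.5 to 671 TPM against 29.5 to 410, had a lower share on the shorter copy in the high set (13.7% to 25.3% against 31.2% to 68.1%). These entries are listed at chr11:57559807-57559926, and they are shown as the pair that ran the opposite way.
novel_pir249668: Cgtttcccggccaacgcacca
novel_pir249670: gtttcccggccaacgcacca
Another pair of the 5, novel_pir402743 and novel_pir402737, did not follow either and overlapped between the sets. The shorter copy held 72.0% to 83.8% of the pair's reads in the high set and 45.6% to 95.5% in the low set. The list assigns this pair to the LINE/L1 element that also holds the Rn5s entry given below. novel_pir402743 begins with the bases that end novel_pir176672, an entry from base 5 of the 5S ribosomal RNA Rn5s. Whether the pair comes from inside that RNA was not tested.

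Several predicted piRNAs match the first bases of annotated small RNAs exactly, which gives their start a fixed position. Of 3910 small non-coding transcripts of the GENCODE M21 annotation (mm10), reads starting at bases 1 to 6 were looked up, and 193 entries matched, 25 of them among the tested ones. Entries from base 2 of Rn5s, the 5S ribosomal RNA found in 41 gene copies, summed to 87.7 to 288 TPM (median 235) in the high set and 1.61 to 17.5 TPM (median 6.16) in the low set. Entries from base 3 overlapped, with 1.46 to 12.9 TPM in the high set and 1.07 to 5.94 in the low set. For Rnu2-10, a copy of the spliceosomal U2 snRNA, entries from base 1 were at 0 in all 6 high libraries, against 0.0384 to 2.24 TPM (median 0.356) in the low set. Its entries from base 2 stood at 10.6 to 43.0 TPM (median 30.7) in the high set and 0.0392 to 1.93 TPM (median 0.555) in the low set. In reads, the low set held 175 from base 1 and 217 from base 2, and the high set 4227 from base 2. The gain at base 2 was thus not matched by a loss at base 1. Rn5s had no matched entries from base 1.
Rnu2-10 from base 1 (novel_pir86362): atcgcttctcggcctttt
Rnu2-10 from base 2 (novel_pir86363): tcgcttctcggccttttgg
Rn5s from base 2 (novel_pir402889): tctacggccataccaccct
The U2 entries start 1 base apart and also end apart, and the list assigns them to a DNA transposon at chr10:39139030-39139749, while the Rn5s entry is assigned to a LINE/L1 element at chr15:57432781-57433818.
Base 3 of Snord14c, a snoRNA, was also fuller in the high set (6.56 to 27.6 TPM against 0 to 1.45 in the low set). Snord1b went the other way: from base 5 it had 1.97 to 13.3 TPM in the high set and 13.6 to 321 in the low set. These transcripts were chosen after the data were seen, so the sums carry no test.

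**Figure D3:**
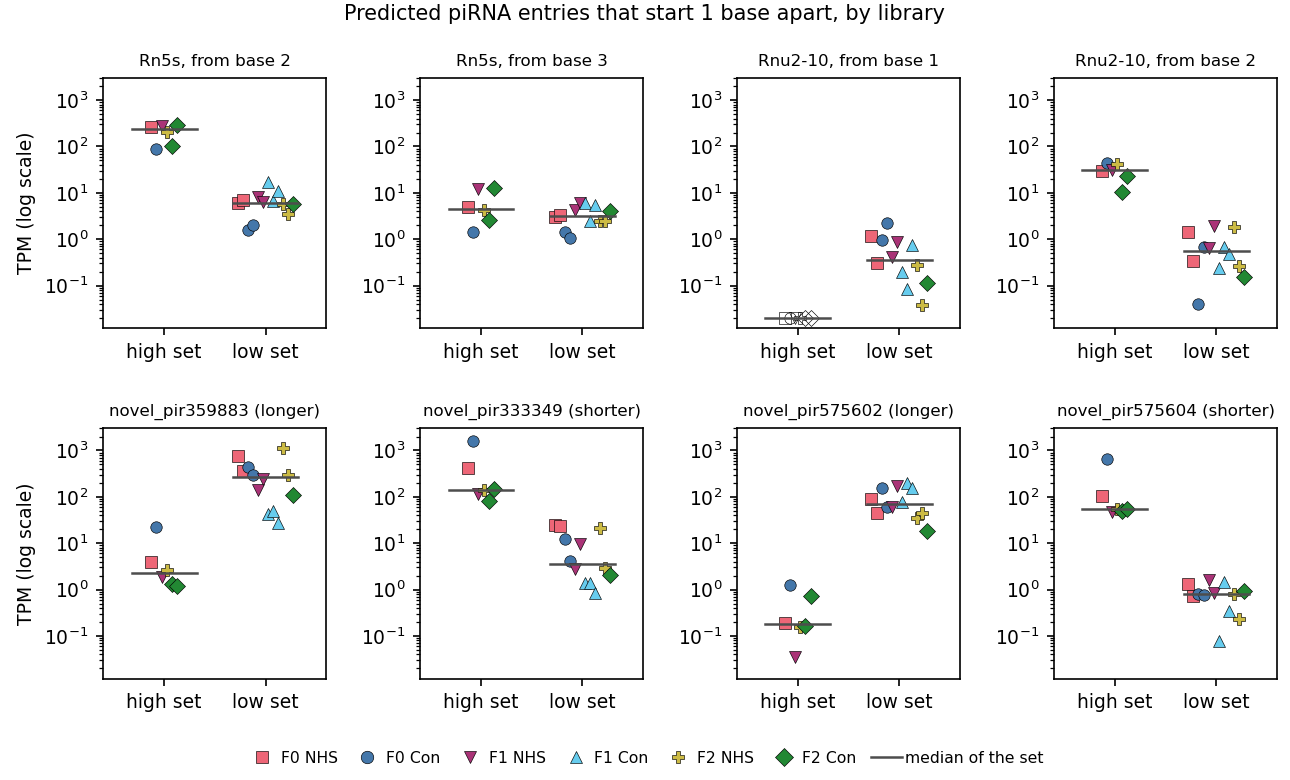
TPM in each library (log axes, high set left of low set, lines at the medians) of entries from neighbouring start bases of Rn5s and Rnu2-10, and of the longer and shorter copies of the chr14 and chr3 pairs; open symbols at the bottom stand for 0 reads. From base 2 the high set lies above the low set for both transcripts, and in both pairs the longer copy is low and the shorter copy high in the high set.

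The base at which reads begin changed with the sets. Among listed predicted piRNAs of 24 to 31 bases, the usual piRNA length, T stood at base 1 in 24.6% to 30.1% of sequences (median 26.2%) in the high set and in 46.3% to 61.3% (median 54.5%) in the low set. The difference within groups was -26.5 percentage points, negative in 5 of 5 groups (exact permutation p = 0.004115, adjusted 0.009877). Adenine at base 10 stood at 20.5% to 23.96% in the high set and 23.7% to 31.2% in the low set, a difference of -5.30 percentage points (exact permutation p = 0.00823, adjusted 0.009877). Adenine at base 9, which is base 10 of a copy 1 base longer at its start, stood at 23.8% to 29.1% in the high set and 19.0% to 24.9% in the low set, 4.17 percentage points higher (exact permutation p = 0.00823, adjusted 0.009877). It was higher in 4 of 5 groups, the difference in F2 NHS being -0.376.

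Counted by reads, the sets stood further apart at bases 9 and 10. A at base 9 took 33.1% to 80.6% of reads in the high set and 13.7% to 29.8% in the low set, and A at base 10 took 7.73% to 25.7% against 31.6% to 66.4%. The chr14 pair printed above weighs on these shares. novel_pir333349, with A at base 9, held most of the 46022 reads in F0 Con replicate 2, the library at 80.6%. novel_pir359883, with A at base 10, held a large part of the 52594 reads in F0 NHS replicate 1, the library at 66.4%. The shares were not computed without this pair. T at base 1 took 6.06% to 26.3% of reads in the high set and 25.8% to 62.6% in the low set, with a slight overlap. Reads of 21 bases made up 16.8% to 45.05% of predicted piRNA reads in the high set and 9.498% to 19.7% in the low set. Mean read length did not pass the test, at 20.3 to 21.8 bases in the high set and 20.3 to 23.01 in the low set (difference -0.487 bases, exact permutation p = 0.387).

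**Figure D4:**
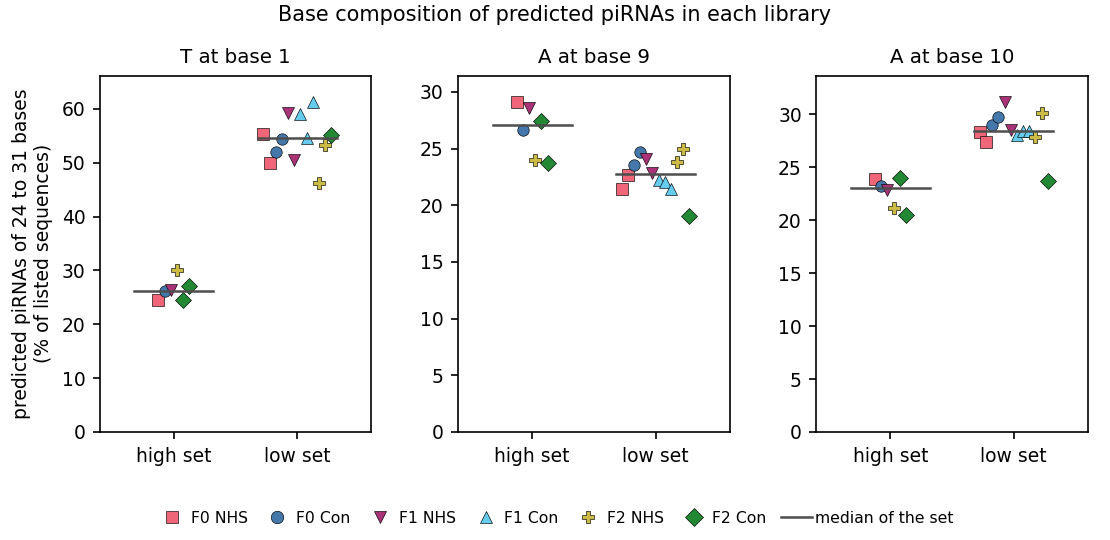
Share of listed predicted piRNAs of 24 to 31 bases with T at base 1, A at base 9 and A at base 10 in each library, high set left of low set, lines at the medians, axes from 0. T at base 1 divides the sets (24.6% to 30.1% against 46.3% to 61.3%), while the ranges for A at base 9 and at base 10 touch or overlap.

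Counts of single entries were then compared with edgeR's quasi-likelihood test, with group and set in 1 model and Benjamini-Hochberg adjustment within each class, at an adjusted p under 0.05. Fold changes are log2 of the high over the low set. An entry that stays under 1 TPM in every library of 1 set passed the filter, 1 TPM in at least 3 libraries, only through the other set and had to differ, so its call supports nothing. Of 937 predicted piRNAs with at least 1 TPM in at least 3 libraries, 532 changed (56.8%): 186 rose (19.9%) and 346 fell (36.9%). The groups of values did not overlap for 256 (27.3%). The filter shaped these shares: 102 entries were under 1 TPM in the whole low set (98 called) and 371 in the whole high set (301 called). Of the 464 others 88 were called higher and 45 lower, and without the filter 1252 of 601270 were called (0.208%). The median log2 fold change of all 937 was -0.82. Under scaling by class totals the split was 128 higher and 460 lower, with a median of -1.92. T began 39 of the 186 that rose (20.97%), 165 of the 346 that fell (47.7%) and 98 of the 405 others (24.2%). Being the copy of another entry without its first base was about as common among those that rose (68.8%) as among all 937 (67.7%).

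The 8 entries with the smallest p that rose and averaged at least 10 TPM in the high set came from 3 places. Of these, 5 start at base 2 of Rn5s and differ in their last base, with log2 fold changes of 5.79 to 6.90, among them novel_pir402889 (6.90, SE 0.78, edgeR adjusted p = 2.39e-07). novel_pir86363, from base 2 of U2, rose by 6.29 (SE 0.68, edgeR adjusted p = 1.68e-07). The list assigns novel_pir575604 (7.23, SE 0.69, edgeR adjusted p = 1.68e-07) and novel_pir575622 to the chr3 ERVL element. novel_pir575622 starts upstream of novel_pir575604 and rose by 8.70 (SE 0.87). It was under 1 TPM in the whole low set, as was novel_pir402873. Predicted piRNAs were not compared with tRNA genes, so a tRNA origin of the chr3 entries was not tested.

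Of the 8 that fell, 3 were copies of 1 sequence from an ERVL-MaLR element at chr10:67563406-67563717 that start with T and differ at their end. They are shown as the entries with canonical piRNA form and length.
novel_pir140983: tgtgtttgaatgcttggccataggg
novel_pir140986: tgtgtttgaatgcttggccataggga
novel_pir140987: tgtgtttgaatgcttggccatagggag
novel_pir140986 had 0 to 0.251 TPM in the high set and 6.24 to 57.9 TPM in the low set (log2 fold change -8.33, SE 0.82, edgeR adjusted p = 1.68e-07), and the other two changed by -8.53 and -8.74. novel_pir575589 (-9.62) and novel_pir575602 (-7.48) are the longer copies at chr3, and novel_pir359883 (-5.96), novel_pir354233 (-7.24) and novel_pir469331 (-7.92) complete the 8. All of the 8 but novel_pir575602 and novel_pir359883 were under 1 TPM in the whole high set. These 16 passed with each single library left out, which adds nothing for those under 1 TPM in a whole set. With no filter on low counts, where every listed entry was tested, novel_pir575604, novel_pir575602 and novel_pir359883 did not pass (adjusted p = 0.0537, 0.44 and 0.754).

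Predicted miRNAs other than novel_mir1 were tested in 18 libraries. Of 298, 36 changed (12.1%), 19 upward (6.38%) and 17 downward (5.7%), and the sets did not overlap for 12 (4.03%). Of the 36, 6 were under 1 TPM in the whole low set and 11 in the whole high set. The 211 entries under it in neither set held 19 calls, 13 higher and 6 lower, and without the filter 34 of 6918 were called (0.491%). The split depends on the scaling: with library totals 10 were higher and 41 lower (median of all entries -0.87), and with class totals 9 and 74 (median -1.35), against a median of -0.03 under TMM, edgeR's scaling. Without F2 NHS replicate 1 the test called 20, and without F0 NHS replicate 2 it called 23. By position in GENCODE M21, 12 of the 36 lie in an exon on the same strand and 8 in no gene. novel_mir4 is among these 8, although it lies over a tRNA gene of RefSeq. Positions of the entries not called were not looked up, so these counts are a description.

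Of the tRNA loci other than the marker, 1 passed the test. novel_mir4, which begins at base 2 of its tryptophan tRNA gene, had 413 to 29470 TPM (median 885) in the high set and 38.4 to 169 TPM (median 97.4) in the low set. No low library reached a high one, and the log2 fold change was 4.50 (SE 0.88, edgeR adjusted p = 0.000955). Without F0 Con replicate 2, the library at 29470 TPM, it was 3.34 (adjusted p = 1.74e-05). novel_mir6624, from base 2 of n-TWcca6 at chr11:69063495-69063566, overlapped, at 185 to 35202 TPM in the high set and 14.4 to 1680 in the low set (2.86, SE 1.27, edgeR adjusted p = 0.166). novel_mir5 begins at base 1 of the aspartate tRNA gene n-TDgtc2 and also overlapped, at 121 to 553 TPM against 122 to 291. novel_mir3 has the mature sequence of novel_mir1 at another alanine tRNA gene, n-TAtgc10, and overlapped as well, with 2.60 to 10.8 TPM in the high set and 2.93 to 9.80 in the low set.

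Near-copies of novel_mir1 follow the entry that chose the sets, so their levels are given without a test. The mature sequence of novel_mir6775 (chr11:93652843-93652908, in no annotated gene) differs from it at 1 base and had 0.803 to 5.52 TPM in the high set against 0 to 0.0402 in the low set. That of novel_mir7235 (chr11:55087546-55087607) differs at 2 bases and had 0.142 to 5.23 TPM against 0 to 0.0534. Reads of near-identical loci cannot be told apart by these lists.
novel_mir6775: gggaugaagcucagugguagagc
novel_mir7235: gggauuuagcucagugggagagc

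Among other predicted miRNAs, novel_mir4159 (chr14:33923379-33923414, in no gene) had 5.76 to 19.5 TPM in the high set against 0 to 0.863 in the low set (8.45, SE 0.80, edgeR adjusted p = 9.34e-08). novel_mir2287, opposite an intron of Pde4d at chr13:108588161-108588235, had 3.83 to 18.7 TPM against 0.0782 to 0.689 (5.33, SE 0.47, edgeR adjusted p = 5.93e-08). Both were under 1 TPM in the whole low set. novel_mir8, opposite an intron of Ttll11 on chr2, had 1.56 to 71.2 TPM in the high set and 0 to 1.77 in the low set (6.72, SE 0.84). novel_mir5963, in an exon of the lactate dehydrogenase gene Ldhd, had 7.52 to 117 TPM against 0.153 to 18.3 (4.83, SE 0.83). novel_mir5705 (3.15, SE 0.72) and novel_mir996 (2.15, SE 0.51) rose too, but neither passed with library totals (adjusted p = 0.106 and 0.0637) or class totals (0.112 and 0.335). novel_mir996 also failed without F0 NHS replicate 3 (adjusted p = 0.0532).

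Where 2 predicted loci share a mature sequence, the entries could run in opposite directions. novel_mir2042 (chr13:49684300-49684362) and novel_mir5870 (chr13:49684259-49684320) overlap on the plus strand within the snoRNA gene Gm25394, in an intron of the isoleucyl-tRNA synthetase gene Iars, and both give the mature sequence below.
novel_mir2042 and novel_mir5870: ugcccugugguugcuggaggc
novel_mir2042 rose by 4.70 and novel_mir5870 fell by 3.25 on the log2 scale, while their sum overlapped, at 0.664 to 3.26 TPM in the high set and 0.115 to 2.38 in the low set. The call of novel_mir5870 was lost without any 1 of 8 libraries (adjusted p up to 0.14, without F2 NHS replicate 1). novel_mir1831, opposite an intron of Stox1, was the 1 entry that fell among those with at least 10 TPM on average in the low set (2.38 to 5.13 TPM against 5.88 to 33.5; -1.37, SE 0.41, edgeR adjusted p = 0.0342), and its call was lost without any 1 of 7 libraries, with the largest adjusted p, 0.129, without F2 NHS replicate 1. With no filter on low counts it was 0.606.

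Few known miRNAs passed the test. Of 735 tested in 16 libraries, 15 rose (2.04%) and 0 fell by edgeR, with 81 at an unadjusted p under 0.05, while DESeq2 called 36 higher and 18 lower. The sets did not overlap for 6 (0.816%). Of the 15, 7 were under 1 TPM in the whole low set, and without the filter 38 of 1739 were called (2.19%). The median log2 fold change of all 735 was -0.08, and 348 were above 0. The 10 most abundant miRNAs, led by the smooth muscle miRNA miR-143-3p and the red blood cell miRNA miR-451a, had 0 calls, with log2 fold changes of -0.82 to 0.91. miR-143-3p had 11921 to 154118 TPM in the high set and 5683 to 76845 in the low set, and miR-451a had 4287 to 58904 against 8818 to 76735.

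Of the 15, 6 averaged at least 10 TPM in the high set. miR-1957b had 128.7 TPM in F0 Con replicate 2, 3.59 in F0 NHS replicate 3, 4.38 in F1 NHS replicate 2, 6.71 in F2 NHS replicate 1, and 7.32 and 7.47 in F2 Con replicates 1 and 2. In the low set it was at 0 in 6 of 10 libraries and at most at 0.0850 TPM, below 3 reads. Its 3411 reads in the high set stood against 7 in the low set (edgeR adjusted p = 3.21e-08). miR-5112 had 22.4 to 212 TPM (median 134) in the high set and 0.694 to 10.6 TPM (median 3.16) in the low set, a log2 fold change of 4.91 (SE 0.75, edgeR adjusted p = 0.00245). miR-219a-2-3p, a miRNA of oligodendrocytes, had 2.38 to 56.1 TPM (median 5.91) against 0.127 to 0.680 (median 0.376), a change of 4.96 (SE 0.53, edgeR adjusted p = 7.69e-05). These 3 passed with each single library left out, but miR-1957b and miR-219a-2-3p were under 1 TPM in the whole low set.

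The remaining 3 are enriched in brain. mmu-miR-124-3p, the main miRNA of neurons, had 280 to 7885 TPM (median 567) in the high set and 21.3 to 369 TPM (median 147) in the low set, a log2 fold change of 3.32 (SE 0.66, edgeR adjusted p = 0.0208). mmu-miR-153-3p had 5.94 to 152 TPM against 0.899 to 6.30 (3.71, SE 0.73), and mmu-miR-138-1-3p 24.3 to 524 TPM against 5.78 to 23.6 (2.85, SE 0.58), with the same adjusted p. F0 NHS replicate 3 held the highest value of all 3, and without it they missed the threshold, with log2 fold changes of 2.87, 2.65 and 2.16 (edgeR adjusted p = 0.163, 0.0707 and 0.114). They also missed it without F0 NHS replicate 1 (adjusted p = 0.0715 for each), F0 NHS replicate 2 (0.0633 to 0.069) or F2 Con replicate 3 (0.0567 to 0.0607), and with library totals as the scaling (0.0574 to 0.0693). The number of miRNAs called was 3 without F0 NHS replicate 3, 4 and 5 without replicates 1 and 2 of that group, 5 and 9 without F2 Con replicates 3 and 2, and 8 without F2 NHS replicate 2.

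Sequences of the called miRNAs in the RefSeq table are shown for the nervous system members, with the seed in capitals. miR-153-3p lies at chr12:117250860-117250881, miR-138-1-3p at chr9:122682936-122682957, miR-138-5p at chr8:94324312-94324334 and miR-219b-3p at chr2:29845689-29845711, each on the plus strand (GRCm38.p6).
miR-153-3p: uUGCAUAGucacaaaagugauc
miR-138-1-3p: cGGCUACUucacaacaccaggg
miR-138-5p: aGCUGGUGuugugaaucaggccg
miR-219b-3p: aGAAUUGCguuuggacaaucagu
The seeds differ from one another. miR-138-5p had 0.794 to 34.2 TPM in the high set and 0 to 2.20 in the low set (4.79, SE 1.10, edgeR adjusted p = 0.0368), and its call was lost without any 1 of 10 libraries (adjusted p up to 0.29, without F0 NHS replicate 3). miR-219b-3p had 0.283 to 19.2 TPM in the high set and 0 to 0.170 in the low set, so it was tested only through the high set, and leaving out any 1 of 3 libraries took it out of the test.

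A list of 21 tested nervous system miRNAs, made after these calls were seen and so given without a test, held 6 that rose and 0 that fell, against 15 of all 735 (2.04%), and it was made around these calls. In the list 19 of 21 had a log2 fold change above 0, against 348 of 735, and its median was 1.52, against -0.08. Its summed level was 991 to 10741 TPM in the high set and 318 to 1013 TPM in the low set. F0 NHS replicate 3 held the 10741 TPM, and the next high library 1661. miR-9-5p (2.27, SE 0.62, edgeR adjusted p = 0.0830) and miR-128-3p (0.77, SE 0.48, edgeR adjusted p = 0.618) did not pass. In bulk RNA, more cells of a type and more RNA per cell cannot be told apart, and the part of nervous tissue in these calls was not tested.

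**Figure D5:**
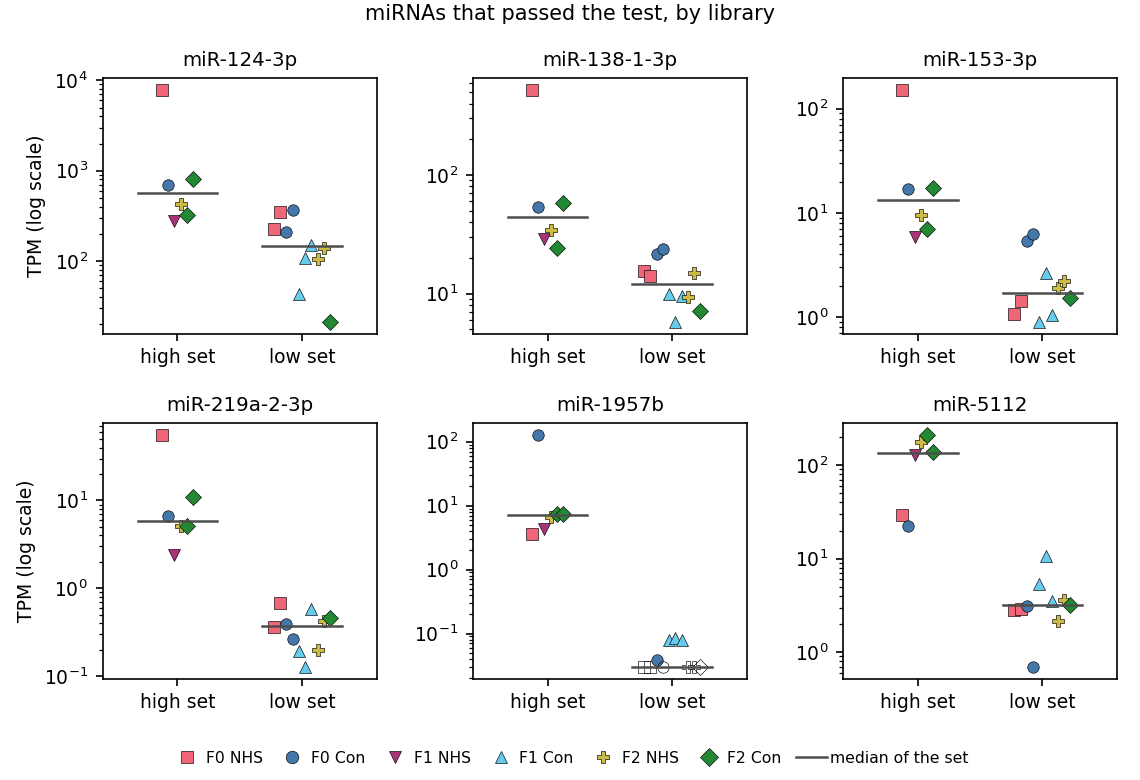
TPM in each library of the 6 miRNAs that passed the test with at least 10 TPM on average in the high set (log axes, high set left of low set, lines at the medians, open symbols for 0 reads). F0 NHS replicate 3 is the highest library for miR-124-3p, miR-138-1-3p, miR-153-3p and miR-219a-2-3p, and F0 Con replicate 2 for miR-1957b.

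The other 15 miRNA lists held 1 call in all. It was miR-145b, in the smooth muscle and stroma list (10 of 13 above 0, median 0.74, summed at 17688 to 177425 TPM in the high set and 9527 to 95691 in the low set). Of miR-34 and miR-449 miRNAs, 3 of 8 were above 0 (median -0.14), in let-7 10 of 16 (0.16), in miR-30 5 of 10 (-0.01) and in the X-linked testis cluster 8 of 32 (-0.36). Red blood cell miRNAs had 1 of 7 above 0 (-1.01), leukocyte 4 of 12 (-0.80), epithelial 10 of 17 (0.17), the listed members of the imprinted Dlk1-Dio3 cluster 42 of 55 (0.30) and the Sfmbt2 cluster 10 of 49 (-0.67). The Dlk1-Dio3 list leaves out miR-770-3p (3.89), miR-770-5p (4.26) and miR-299b-3p (5.90), all on chr12 and all called higher. miR-770-3p lost its call without any 1 of 4 libraries and miR-770-5p without any 1 of 10. miR-770-3p also stayed in the test in only 13 of the 16 runs that left out 1 library. miR-17-92 with its paralogs had 12 of 18 above 0 (0.21), skeletal and cardiac muscle 4 of 6 (0.13), liver 3 of 5 (0.16), the Hox cluster 3 of 7 (-0.20), and miR-99, miR-100 and miR-125 5 of 9 (0.32).

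For the share of the 5p arm, limma called 0 of 264 miRNA precursors (0%), with 14 at an unadjusted p under 0.05. The smallest p values belonged to miR-326 (2.88% of reads on 5p in the high set and 0.244% in the low set on average) and miR-124 (0.146% against 1.13%), both with a limma adjusted p of 0.411. The annotated mature sequence of 595 of the 735 miRNAs was in the RefSeq table. Across these miRNAs the fold change had a Spearman rho of -0.034 with length and 0.055 with GC content. The median log2 fold change was -0.13 for those that begin with U, 0.09 with A, -0.05 with C and -0.01 with G.

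Known piRNAs, tested in 13 libraries, gave 45 calls of 6463 (0.696%), 42 upward (0.65%) and 3 downward (0.0464%). By TPM the sets did not overlap for 2.23% of the 6463. There the split ran the other way, with the high set above for 20 entries and below for 124. Of the 45, 25 were under 1 TPM in the whole low set, and without the filter 120 of 35824 were called (0.335%). mmu_piR_036492 had 1.89 to 29.9 TPM in the high set and 0.153 to 0.793 in the low set (4.62, SE 0.73, edgeR adjusted p = 0.00521), and is 1 of the 25. mmu_piR_001891 had 11.997 to 51.4 TPM against 2.42 to 15.3 (3.07, SE 0.52, edgeR adjusted p = 0.00772), but did not pass with library totals or class totals (0.0824 and 0.0652). The 4 most abundant known piRNAs were not called. mmu_piR_009630 (2.23) and mmu_piR_012107 (2.03) rose as well, but lost their calls without any 1 of 9 and 8 libraries (adjusted p up to 0.295 and 0.414), while mmu_piR_039223 had 0.283 to 2.17 TPM against 2.94 to 19.5 (-2.70, SE 0.52, edgeR adjusted p = 0.0185). Without F0 Con replicate 2 the count was 6, and none of these 5 passed (adjusted p = 0.0552 to 0.414). It was 17 without F0 NHS replicate 3, 27 and 29 without F0 Con and F0 NHS replicates 1, and 29, 25 and 29 without F2 Con replicates 1, 2 and 3. With library totals 11 were higher and 14 lower (median of all -0.93), and with class totals 17 and 4 (median -0.52), against a median of -0.02 under TMM.

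Rfam families other than RF00005 gave 11 calls of 230 (4.78%), 4 upward (1.74%) and 7 downward (3.04%), and the sets did not overlap for 7 (3.04%). Of the 11, 1 was under 1 TPM in the whole low set and 2, RF00409 among them, in the whole high set. RF00409 fell furthest among the abundant ones, with 0.0945 to 0.771 TPM in the high set and 5.62 to 40.1 in the low set (-5.22, SE 0.67, edgeR adjusted p = 9.01e-05). RF00664 had 0.332 to 1.32 TPM against 4.58 to 29.5 (-3.61, SE 0.75), and RF00157 1.13 to 18.5 against 9.69 to 93.2 (-3.13, SE 0.65), both with an edgeR adjusted p of 0.00741. RF00576 (-4.52) and RF00187 (-3.95) fell, and RF00649 rose (2.22, SE 0.57, edgeR adjusted p = 0.0280). The call of RF00409 held without each single library. Without F0 Con replicate 2 it was the 1 call left, with RF00157, RF00664 and RF00576 at an adjusted p of 0.0508, RF00649 at 0.0508 and RF00187 at 0.13. RF00649 lost its call without any 1 of 8 libraries (adjusted p up to 0.224, without F0 NHS replicate 3) and with both other scalings (0.239 and 0.126), and RF00187 without any 1 of 6 (up to 0.13). The count was 5 without F0 NHS replicate 3, 6 without F0 Con replicate 3 and 7 without F0 NHS replicate 1. With library totals 1 was higher and 15 lower (median -0.56), and with class totals 2 and 8 (median -0.16), against a median of 0.28 under TMM.

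Predicted siRNAs, a class of 0.0295% to 0.0871% of reads in the high set and 0.0244% to 0.0484% in the low set, gave 41 calls of 65 (63.1%), 20 upward (30.8%) and 21 downward (32.3%), and the sets did not overlap for 24 (36.9%). The filter shaped this share too: 21 entries were under 1 TPM in the whole low set (16 called) and 17 in the whole high set (16 called). Of the 27 others 9 were called, 4 higher and 5 lower, and without the filter 140 of 8504 (1.65%). novel_sir5827 had 2.74 to 18.6 TPM in the high set and 0 to 1.01 in the low set (5.07, SE 0.91, edgeR adjusted p = 0.000447). novel_sir13941 had 4.77 to 32.4 TPM against 0 to 0.842 (4.40, SE 0.87, edgeR adjusted p = 0.000847), the low set being under 1 TPM throughout. novel_sir6911 had 0.236 to 3.51 TPM against 5.12 to 32.9 (-3.73, SE 0.52, edgeR adjusted p = 8.40e-05). novel_sir11101 rose by 3.72 (SE 1.42, edgeR adjusted p = 0.0382), a call that was lost without F0 Con replicate 1, 2 or 3 (adjusted p = 0.0920, 0.184 and 0.0861). The median of all 65 was 0.38 under TMM and -0.09 with class totals.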

How the data were processed

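Small RNA of sperm was measured in 18 libraries. The deposited table lists, per the file headers, a count and a TPM value for each entry of a library. The deposited counts are whole reads, and the deposited TPM values are the count per 1000000 reads of the library, with no length term, which held for 100% of entries. Further deposited tables give positions and sequences of predicted miRNAs and piRNAs. The submitters' processing notes name mm10, and the aligner, counter and predictors were not given in the sources used here. The table ends at line 96730, so each class was used only in libraries that list it whole.

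Counts were fitted with edgeR 4.0.16 (TMM, quasi-likelihood F test) in R 4.3.3 with the 6 groups and the set as terms, keeping entries with at least 1 TPM in at least 3 libraries. Benjamini-Hochberg adjustment ran within each class, at 0.05, two-sided. DESeq2 1.42.0 ran beside it. Arm ratios, log2 of reads plus 0.5, were fitted with limma 3.58.1 for precursors with a mean of at least 100 reads. Class shares and start measures were compared by exact two-sided permutation of the set label within groups. The adjusted p of edgeR, DESeq2 and limma come from models over all entries of a class. Named are, per class, up to 8 entries in each direction with the smallest p and a mean of at least 10 TPM in the higher set, and the most abundant ones. Other named entries (novel_mir6775, novel_mir7235, novel_mir2042, novel_mir5870, miR-138-5p, miR-219b-3p, and the nested pairs and tRNA, snRNA, rRNA and snoRNA starts) were chosen after their values were seen. Alternatives were other scalings, no filter, no group term, a replicate block and leaving out each library. The scripts were tested on simulated data. Members, lists and start measures were chosen with earlier results of these data known.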

Additional observations from a re-analysis of the deposited data

Results flagged for a closer look

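Of 91 sets of 4 to 10 values, 23 held a library far from the rest of its set, where a nominal rate of 1 in 20 would give about 4.5. Values were not log-transformed, and many sets share libraries or hold copies of 1 sequence, so this comparison is not a test. F0 NHS replicate 3 accounted for 8 of the 23 and F0 Con replicate 2 for 7. In F0 NHS replicate 3 these were miR-219a-2-3p (56.15 TPM, next 10.96), miR-153-3p (152.4, next 17.37), miR-124-3p (7885, next 806.5), miR-138-1-3p (523.8, next 58.43), novel_mir5963 (117.1), RF00649 (29.44), novel_pir402875 (43.62) and novel_pir575589 (0.04726). In F0 Con replicate 2 they were miR-1957b (128.7, next 7.47), novel_mir4 (29470, next 1216), novel_pir575604 (649.1), novel_pir575622 (63.06), novel_pir359883 (22.81), novel_sir13941 (32.36) and the share of predicted miRNAs (6.734% of reads, next 0.6971%).

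F2 Con replicate 2 stood apart from the other high libraries in novel_pir140983 (0.332 TPM), novel_pir469331 (0.6086 TPM) and the share of predicted piRNAs (2.757%), and F2 NHS replicate 1 in novel_pir140987 (0.1156 TPM). Within the low set, F1 Con replicate 2 stood apart in miR-5112 (10.58 TPM), F1 Con replicate 3 in mmu_piR_001891 (15.34), F2 NHS replicate 2 in novel_sir11101 (2.575) and F2 Con replicate 3 in novel_sir6911 (32.95).

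For 10 measures every high library lay above every low library in at least 1 group and below every one in another, and these differences between groups were not tested. Measures whose libraries overlap within a group, such as A at base 9 in F2 NHS, are not among them. novel_mir996 differed by 78.72 TPM in F0 NHS, 49.63 in F0 Con, 28.99 in F2 NHS and 49.92 in F2 Con, but by -0.7907 in F1 NHS. The share of reads on miRNAs differed by 13.55 percentage points in F0 NHS, -14.02 in F0 Con and -4.738 in F2 NHS. For predicted miRNAs it was 6.363 in F0 Con, 0.2375 in F2 Con, -0.1535 in F0 NHS and -0.3106 in F1 NHS. Predicted piRNAs had 0.2133 in F0 Con, 0.3246 in F2 NHS and -0.3011 in F0 NHS, and known piRNAs 2.899 in F2 Con, -2.325 in F0 Con and -4.976 in F0 NHS. Rfam families had 0.5475 in F0 NHS, -1.012 in F0 Con and -3.506 in F2 Con. Reads assigned to exons had 1.112 in F0 Con, -1.249 in F0 NHS and -1.742 in F2 Con, those in introns 0.639 in F0 Con and -1.266 in F0 NHS, and those in repeats 10.84 in F0 Con, 4.598 in F2 Con and -3.485 in F0 NHS. Mean read length differed by 0.598 bases in F0 NHS, -2.083 in F2 Con and -1.753 in F2 NHS.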

How the results depend on the processing

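No fold change turned its sign among the called entries that were followed through the alternatives. Entries named only as most abundant, and some others named above, were not followed. DESeq2 called 54 miRNAs, 65 predicted miRNAs, 127 known piRNAs and 25 Rfam families, and without the filter on low counts edgeR called 38 miRNAs, 120 known piRNAs, 18 Rfam families, 1252 predicted piRNAs and 140 predicted siRNAs. Library totals gave 6 miRNAs and 25 known piRNAs, and class totals 83 predicted miRNAs and 21 known piRNAs. miRNAs came to 25 without the group term and 24 with both arms summed. Without the groups as strata, the start measures kept their calls. The share without the last base gave 1.212 percentage points (median of pairs with at least 20 reads) and -1.795 (pooled reads, adjusted permutation p = 0.0346), alternatives added after the data were seen; the cause was not tested.

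Leaving out 1 library gave 3 to 19 miRNAs, 20 to 38 predicted miRNAs, 6 to 48 known piRNAs, 1 to 15 Rfam families, 466 to 528 predicted piRNAs, 35 to 45 predicted siRNAs, and 0 arm ratios or class shares. Differences then ran from 23.5 to 25.07 percentage points for the first base, 2.144 to 3.566 for the last, -28.23 to -25.65 for T at base 1, -6.254 to -4.67 for A at base 10 and 3.447 to 5.303 for A at base 9, and from -0.7921 to -0.08789 bases for length.

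Replicate numbers are shared between groups. Deviations of libraries of 1 number had an r of -0.197 to 0.224 (median 0.0229, 30 pairs). For other pairs r was -0.215 to 0.246 (median -0.0141, 60 pairs). The ranges overlap and the median is slightly higher for pairs of 1 number. Whether a number marks a shared batch was not tested. With a replicate block edgeR called 14 miRNAs, 32 predicted miRNAs, 30 known piRNAs, 15 Rfam families, 531 predicted piRNAs and 45 predicted siRNAs, and limma 0 arm ratios. At the floor of 3 reads, entries under 0.174 TPM were not detectable in the shallowest library.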

Other observations

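F1 NHS replicate 1, the low library nearest to the threshold, had 26.5% of its predicted piRNA reads at 15 to 17 bases. All other libraries of both sets had 0% there.

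The start of reads 2 or 3 bases in was also compared. The shorter copy without 2 first bases held 59.0% to 66.5% of a pair's reads in the high set and 46.4% to 56.6% in the low set, without overlap. Without 3 first bases the share was 60.0% to 70.2% against 45.4% to 60.6%, and the sets overlapped.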
